A study of Mus musculus with 4 samples.

Results

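Heat shock proteins and their J-domain co-chaperones were examined in mouse cortical neuron cultures in which the decapping scavenger enzyme DcpS was targeted. The genes were taken by symbol: every row of the deposited table named Hsp followed by a family letter and a number, Hsph1, and every Dnaja, Dnajb and Dnajc gene. This gave 70 genes of the 32681 in the table, chosen by name and not by any measured value. The rule also takes in 4 genes whose names share the stem but which are not chaperones of these families: Hspg2, Hspbp1, Hspbap1 and Hspb11.

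The cultures were prepared from the neocortex of wild-type CD-1 mice, an outbred strain, at embryonic day 13, and were grown in Neurobasal medium with B27. Of the 4 cultures, 2 received a control short hairpin RNA (shRNA) and 2 an shRNA against DcpS, and the study set out to find genes downstream of that enzyme. The titles of both DcpS shRNA libraries carry the same tag, shDcPS-2, which the labels do not explain. If it names a single hairpin, loss of DcpS and other effects of that hairpin cannot be told apart. The labels give no time from transfection to harvest, share of cells transfected, hairpin promoter or hairpin sequence. They name no separate litters or animals either, so the p-values speak only to the spread among these 4 cultures, and that spread may be technical.

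Heat shock proteins are chaperones that bind unfolded or partly folded proteins, and only some of them are induced by heat. HSP70 proteins (the HSPA family) bind and release clients in a cycle driven by ATP. J-domain proteins (DNAJA, DNAJB and DNAJC) bring clients and stimulate the ATPase, while HSP110 proteins exchange the nucleotide. Small heat shock proteins (HSPB) hold clients without ATP, and the mitochondrial chaperonin HSPD1 with its lid HSPE1 folds proteins inside a chamber. In neurons, the HSP70 protein HSPA8 works with auxilin (DNAJC6) to strip clathrin from vesicles, and with cysteine string protein alpha (DNAJC5) on synaptic vesicles.

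Several sequences are shown because the results below refer back to them. The first set holds stretches of 3′ untranslated regions (3′ UTRs) around a 7-base word, ACGTGCA or CACGTGC, which overlap in the 8 bases CACGTGCA. These words were picked in an earlier look at the same data because they were more frequent among genes that were lower with DcpS shRNA, so their frequency in such genes is a description and no independent evidence. The stretches are from GRCm38 with GENCODE M21 gene models, 5′ to 3′ on the gene's strand, with the word in capitals. The first is from Dcps, the next 4 from the called genes with a word, and the last from Hsbp1, described further on.
Dcps, chr9:35124747-35124773, minus strand: ctatcacctgCACGTGCAtttcacagc
Dnajc4, chr19:6987923-6987949, minus strand: tccagaactaCACGTGCAataaactca
Dnajc6, chr4:101642606-101642632, plus strand: aaactcttaaCACGTGCAgaccaatag
Dnajc6, chr4:101641872-101641898, plus strand: aatatgtctaACGTGCAcacacacatt
Dnajb5, chr4:42957770-42957796, plus strand: aattttctgtCACGTGCtttgaatcca
Hsbp1, chr8:119348122-119348148, plus strand: aggtttataaACGTGCAttcttatcac

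The second set holds the members' promoter stretches with 3 inverted units of the heat shock element, the motif bound by heat shock factors (in capitals). They are from RefSeq on GRCm38.p6, on the gene's strand. Hspd1 and Hspe1 are transcribed in opposite directions from a shared promoter. Their entries are overlapping but not identical stretches of it, read on opposite strands.
Hspe1, chr1:55088056-55088084, plus strand: ccgttctaGAACCTTCCGGAAggccccgc
Hspd1, chr1:55088051-55088079, minus strand: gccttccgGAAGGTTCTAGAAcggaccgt
Dnajb6, chr5:29735844-29735872, plus strand: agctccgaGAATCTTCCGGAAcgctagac
Hsph1, chr5:149636280-149636308, minus strand: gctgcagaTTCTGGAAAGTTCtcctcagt

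The libraries held 17754768 to 21793685 reads, and a gene with 0 reads could have up to 3, equal to 0.138 to 0.169 CPM (reads scaled to the library total; counting error only). Values are normalised read counts, which are reads divided by a size factor of the library. Dcps stood at 499.8 and 506.6 in controls 1 and 2 and at 114.5 and 119.6 with DcpS shRNA 1 and 2, or 23.3% of control (log2 fold change −2.10, SE 0.11; limma adjusted p = 1.52e-08). A gene was called when its Benjamini-Hochberg adjusted p from limma, over all 18110 genes with enough reads, was under 0.05. Of these, 1048 were called, 661 lower and 387 higher with DcpS shRNA. Markers of neurons were present in every library (all 15 tested), but markers of fibroblasts and matrix were present too, and 11 of 12 were called lower. Summed, they came to 20640 and 22327 for the controls, and to 13895 and 13089 for DcpS shRNA. Endothelial and mural markers summed to 789 and 862 against 517 and 482, with Cldn5 at or near 0. Of these sums, Pdgfrb alone made up 506 and 534 against 329 and 304. Of 7 tested, 3 were called lower (Kdr, Pdgfrb and Acta2), and log2 fold changes were below 0 for 6. The other, Pecam1, had few reads (5.7 and 12.3 against 20.0 and 14.5), was above 0 and was not called. The neuron sum was 111335 and 110180 against 106708 and 106250. Of the 15 neuron markers, 4 were called, 2 higher (Slc17a7, log2 fold change 0.52, and Rbfox3, 0.24) and 2 lower (Snap25, −0.26, and Syt1, −0.22). Of 10 radial glia and astrocyte markers, 3 were called lower (Gfap, −0.91, Aqp4, −1.13, and Gja1, −0.67), and their sum was 17481 and 16746 against 16399 and 17090. In the choroid plexus and ependyma list 1 of 4 tested was called, lower (Ttr, −0.38). All 4 had an unadjusted p under 0.05, 3 of them below 0. The other, Foxj1, was above 0 (0.45, limma adjusted p = 0.0502). In the oligodendrocyte list 1 of 4 tested was called, higher (Mbp, 0.47), with 3 below 0 and 3 at an unadjusted p under 0.05. In the microglia list 0 of 5 were called, with 1 at an unadjusted p under 0.05. The part of these cell types in the chaperone values below was not tested. In such bulk RNA, a smaller number of cells of a type and a lower RNA content of each cell cannot be told apart.

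Most chaperone genes differed little between the groups. Of the 70, 64 had enough reads to be tested, and 5 were called (7.81%, beside 5.79% of all genes tested). Dnajc4, Dnajc6, Dnajb5 and Hsph1 were lower with DcpS shRNA (4 of 64, beside 3.65% of all genes) and Dnajc10 was higher (1 of 64, beside 2.14%). The median log2 fold change was 0.02 over the 64 and 0.00 over all genes, and the median size of the change, sign ignored, was 0.10 and 0.11. Unadjusted p-values were under 0.05 for 15 of the 64 and for 3380 of all 18110. The 2 groups did not overlap for 32 of the 64, beside 48.4% of all genes. Among the 59 that were not called, 47 had a log2 fold change between −0.2 and 0.2. With edgeR the same 5 were called, and with DESeq2 3 of them, Dnajc4, Dnajc6 and Dnajb5. The 95% interval itself lay within those bounds for 20 of the 64.

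**Figure D1:**
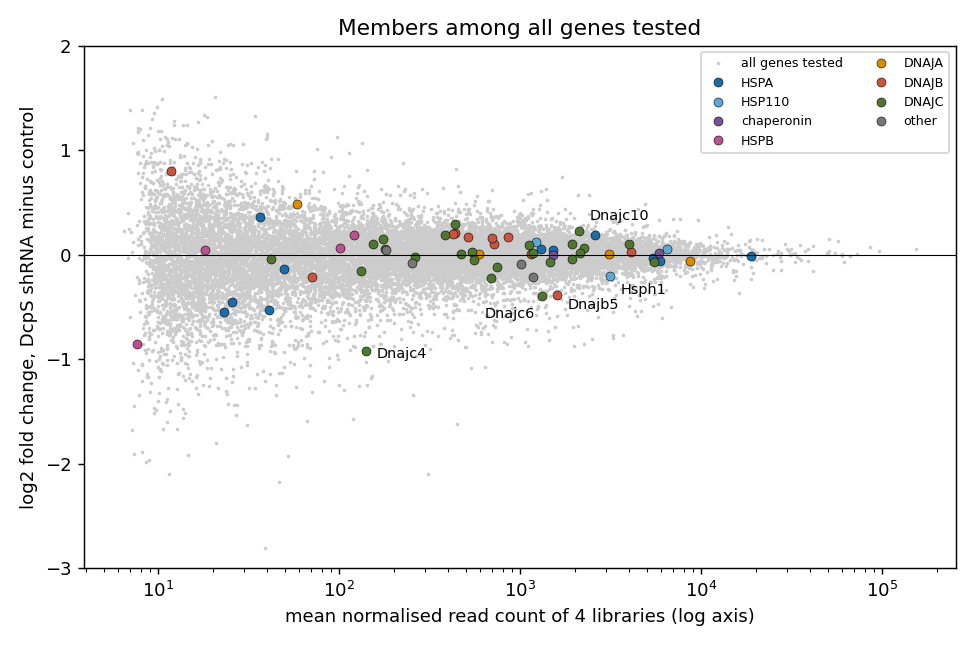
Log2 fold change of DcpS shRNA minus control (vertical) against the mean normalised read count of the 4 libraries (horizontal, log axis) for all 18110 genes tested (grey) and the 64 chaperone genes tested (coloured by class). The 5 called members are labelled, and members of low count on the left spread more widely than those of high count on the right.

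The summed normalised count of all 70 genes came to 110745 and 109448 for the controls, and to 108581 and 110776 for DcpS shRNA, or 99.6% of control. Per kilobase of exon, 8 genes were above 1000 normalised reads as a mean of the 4 libraries. Hspa8, the constitutive HSP70 of the cytosol, led with 4408 per kb and was followed by Hspd1 (2221), Hspa9 (1372), Hspa5 (1275), Hspa4 (1167), Dnaja2 (1046), Hspe1 (1036) and Dnaja1 (1008). The order among the last 3 is within the spread of the libraries, as the plot of levels shows. The whole order also depends on the length used, which joins the exons of all annotated transcripts of a gene. Dnaja1 was divided by 8629 bases and Hspd1 by 2642. By mean count alone, Dnaja1 (8697) stood above Hspd1 (5867).

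**Figure D2:**
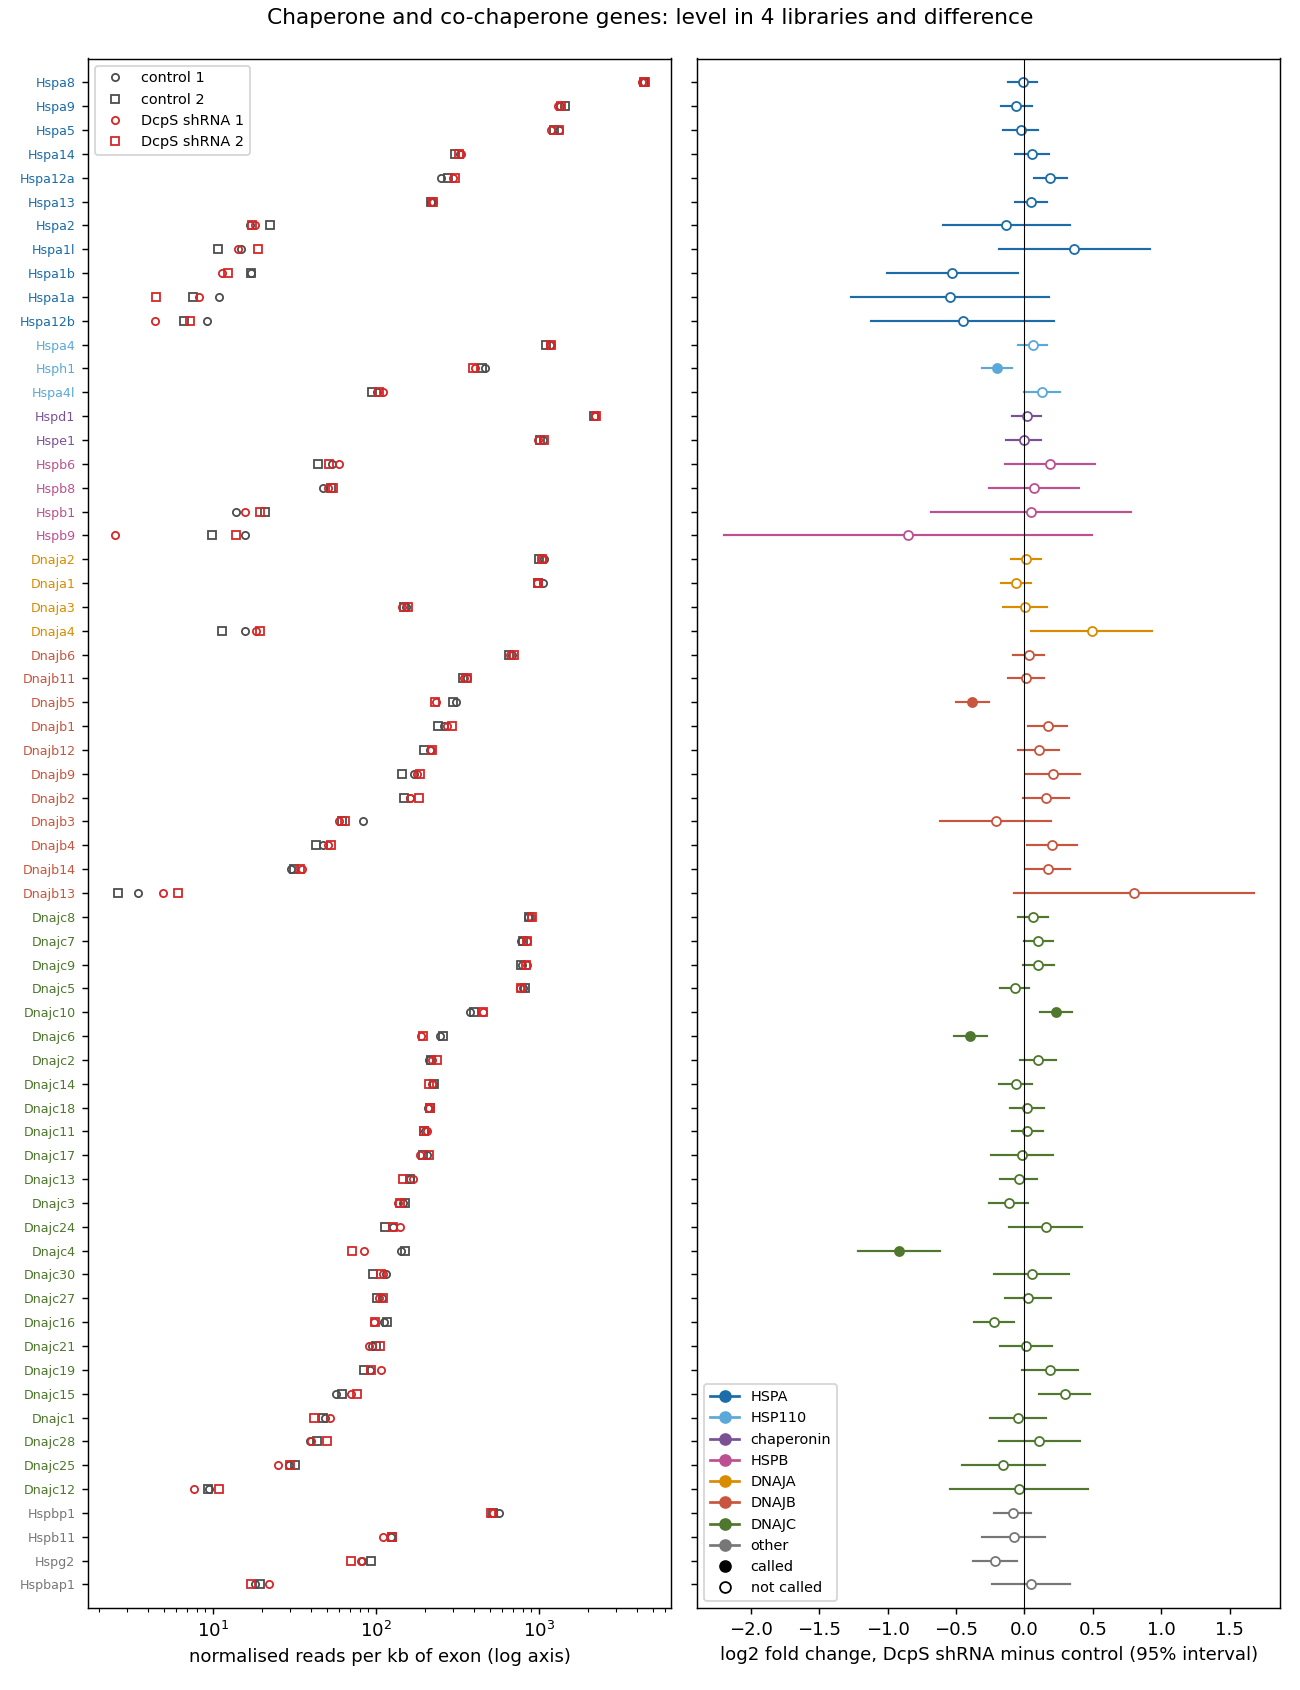
Left, level of each of the 64 tested genes in the 4 libraries as normalised reads per kb of exon (log axis, grey for control, red for DcpS shRNA). Right, log2 fold change of DcpS shRNA minus control with its 95% limma interval, filled where called; the intervals are widest for genes of low level such as Hspb9 and Dnajb13.

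In the HSP70 family itself, limma called 0 of 11 members (2 at an unadjusted p under 0.05), beside 5.79% of all genes tested. The median log2 fold change of the family was −0.03. Hspa8 was at 19050.9 and 19013.3 in the controls and at 18464.7 and 19298.0 with DcpS shRNA. The DcpS shRNA values lie on either side of the controls, and the log2 fold change was −0.01 (95% interval −0.12 to 0.09). It made up 55.3% to 55.7% of the family's summed level per kb in every library. Hspa5 (BiP), the HSP70 of the endoplasmic reticulum (ER), was at 5650.6 and 5231.2 against 5009.8 and 5669.1, with overlapping groups. Hspa9 (mortalin), the HSP70 of mitochondria, was at 5810.3 and 6258.8 against 5686.7 and 5892.6, again overlapping. Hspa13, an HSP70-like ATPase of microsomes, and Hspa14, which acts at ribosomes, each had a log2 fold change of 0.05.

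The brain-enriched, atypical Hspa12a came closest to the threshold in this family. It stood at 2323.2 and 2554.6 in the controls and at 2744.8 and 2809.4 with DcpS shRNA. Both DcpS shRNA values were above both controls, but the log2 fold change of 0.19 (SE 0.06) was not called (limma adjusted p = 0.0672). The stress-inducible pair Hspa1a and Hspa1b was near the bottom of the range. Hspa1b was at 48.5 and 48.2 against 31.8 and 34.6, with no overlap, and was not called (log2 fold change −0.53, SE 0.23; limma adjusted p = 0.215). Hspa1a was at 32.3 and 22.6 against 24.5 and 13.4, with overlap (log2 fold change −0.55, SE 0.34). These copies are nearly identical, so their values are uncertain. Hspa1l, whose exons share 71.9% of their bases with the antisense gene Gm10501, Hspa2 and Hspa12b were also low and not called.

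Among the 3 nucleotide exchange factors of the HSP110 class, Hsph1 fell and the others did not pass the test. Hsph1 was at 3420.6 and 3278.6 in the controls and at 2948.3 and 2888.7 with DcpS shRNA. Both DcpS shRNA values were below both controls, at 87.1% of the control mean. The log2 fold change was −0.20 (SE 0.05, 95% interval −0.31 to −0.09; limma adjusted p = 0.0343). The call was lost with DESeq2 (adjusted p = 0.105), without control 1 (limma adjusted p = 0.34) and without control 2 (0.131). Hspa4 was at 6479.2 and 6163.4 against 6558.9 and 6613.3, and Hspa4l at 1203.9 and 1127.1 against 1312.9 and 1231.5. In both of these the DcpS shRNA values were the higher ones, with log2 fold changes of 0.06 and 0.13. Hsph1 made up 27.0% and 27.2% of the class's summed level per kb for controls, against 23.8% and 23.4% for DcpS shRNA.

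The chaperonin pair was flat. Hspd1 was at 5863.5 and 5807.6 against 5834.8 and 5964.1, and its log2 fold change was 0.02 (95% interval −0.09 to 0.12). Hspe1 was at 1562.1 and 1495.2 against 1460.1 and 1591.3, or 99.8% of control. Groups overlapped in both. The small heat shock genes were low throughout. Limma called 0 of the 4 tested, beside 5.79% of all genes, with 0 of the 4 at an unadjusted p under 0.05. Hspb6 was at 124.5 and 101.5 against 137.2 and 119.6, Hspb8 at 93.1 and 103.6 against 99.0 and 107.3, and the heat-inducible Hspb1 at 14.3 and 21.5 against 16.4 and 20.1. The groups overlapped in all 3. Hspb9 ranged from 1.8 to 11.4, and its interval of −2.20 to 0.49 leaves a wide range of differences undetectable at this depth.

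The J-domain families held 4 of the 5 called genes, 3 lower and 1 higher among 40 tested, beside 1 of 24 among the other members and 5.79% of all genes tested (3.65% lower, 2.14% higher). No difference between these shares was tested. In the DNAJA family, the general HSP70 partners, 0 of 4 genes were called by limma, with 1 at an unadjusted p under 0.05. Dnaja1 was at 9165.3 and 8603.2 against 8473.3 and 8547.7, and Dnaja2 at 3192.6 and 3008.9 against 3123.6 and 3122.3. Dnaja1 was lower in both DcpS shRNA libraries by a small margin (log2 fold change −0.06), while Dnaja2 lay within the controls (0.01). The mitochondrial Dnaja3, at 600.5 and 580.4 against 567.9 and 619.1, also overlapped. The low Dnaja4, at 57.0 and 41.0 against 66.3 and 70.4, did not overlap and was not called (log2 fold change 0.49; limma adjusted p = 0.216). It shares 44.1% of its exon bases with Wdr61, so its reads are uncertain.

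In the DNAJB family, Dnajb5 fell. This J-domain protein is of the same class as the classical HSP40 protein DNAJB1, and its gene lies at chr4:42949814-42959425 on the plus strand. Dnajb5 was at 1850.0 and 1763.9 in the controls and at 1401.0 and 1374.5 with DcpS shRNA. Neither DcpS shRNA library came near the controls, and the mean was 76.8% of control. The log2 fold change was −0.38 (SE 0.06, 95% interval −0.50 to −0.26; limma adjusted p = 0.000567). Its share of the family's summed level per kb was 13.3% and 13.7% for controls, against 10.5% and 9.84% for DcpS shRNA.

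The other DNAJB genes mostly had small positive values, and 9 of the 11 tested in the family were above 0 (median 0.16). None of the 9 was called. Over all genes tested, 9085 of 18110 were above 0. Dnajb1, the main HSP40 partner of heat-induced HSP70, was at 843.7 and 777.4 against 883.1 and 938.7. Both DcpS shRNA values were above the controls, and the log2 fold change of 0.17 was not called (limma adjusted p = 0.189). Dnajb6, which suppresses aggregation of polyglutamine proteins, was at 4164.6 and 3967.8 against 4028.6 and 4276.7, with overlap. The ER gene Dnajb9 was at 439.0 and 370.2 against 455.2 and 477.2 (log2 fold change 0.21; limma adjusted p = 0.242), without overlap. Dnajb11, a BiP partner, was at 1183.0 and 1110.6 against 1123.0 and 1184.5 and overlapped. Dnajb4, at 415.2 and 378.4 against 447.0 and 463.8, and Dnajb14, at 476.0 and 497.4 against 554.2 and 542.0, were likewise higher in both DcpS shRNA libraries and not called. The low Dnajb13, a J-domain protein of motile cilia and sperm tails, had the largest positive value of all members, with 9.5 and 7.2 against 13.6 and 16.8. Its interval of −0.08 to 1.68 includes 0 (log2 fold change 0.80; limma adjusted p = 0.324).

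The DNAJC family, whose members mostly serve one compartment or task each, held 3 called genes among 25 tested, beside 5.79% of all genes; no difference between these shares was tested. Dnajc4, at chr19:6987911-6992572 on the minus strand, had the largest change of the called members. It was at 178.6 and 187.7 in the controls and at 105.4 and 88.3 with DcpS shRNA. The DcpS shRNA libraries were far below both controls, at 52.9% of their mean. The log2 fold change was −0.92 (SE 0.14, 95% interval −1.22 to −0.62; limma adjusted p = 0.000855).

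Dnajc6, at chr4:101496648-101642799 on the plus strand, encodes auxilin, the neuronal J-domain protein that recruits HSPA8 to clathrin coats. Dnajc6 was at 1473.7 and 1527.0 in the controls and at 1126.6 and 1154.4 with DcpS shRNA. The groups were well apart, and the DcpS shRNA mean was 76.0% of control. The log2 fold change was −0.40 (SE 0.06, 95% interval −0.52 to −0.27; limma adjusted p = 0.000516). Gak, the auxilin expressed in most cells, was at 2081.8 and 2062.3 against 2044.3 and 2065.1, with overlap. Dnajc5, the cysteine string protein, was at 5548.0 and 5759.4 against 5357.8 and 5405.3. Both DcpS shRNA values were slightly below the controls (log2 fold change −0.07), and it was not called.

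Dnajc10 rose. It encodes ERdj5, a BiP partner that reduces disulfide bonds of misfolded proteins in the ER, and lies at chr2:80315466-80354043 on the plus strand. Dnajc10 was at 1894.6 and 2018.2 in the controls and at 2287.8 and 2293.1 with DcpS shRNA. Both DcpS shRNA values were above both controls, at 117% of their mean. The log2 fold change was 0.23 (SE 0.06, 95% interval 0.11 to 0.34; limma adjusted p = 0.0215). The call was lost with DESeq2 (adjusted p = 0.0913) and without control 1, the lower control (log2 fold change 0.18; limma adjusted p = 0.275). It was the only one called among the 7 ER members listed, beside 5.79% of all genes tested. The 7 were Hspa5, Hspa13, Dnajb9, Dnajb11, Dnajc1, Dnajc3 and Dnajc10 (median 0.01). The list does not hold every ER member: Dnajc16, described below, is not in it. Dnajc3, an ER co-chaperone that also inhibits the eIF2alpha kinases, was at 760.1 and 782.5 against 701.4 and 721.9 and was not called (log2 fold change −0.12; limma adjusted p = 0.386). Dnajc1 was at 572.0 and 554.8 against 614.2 and 485.0, with overlap.

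**Figure D3:**
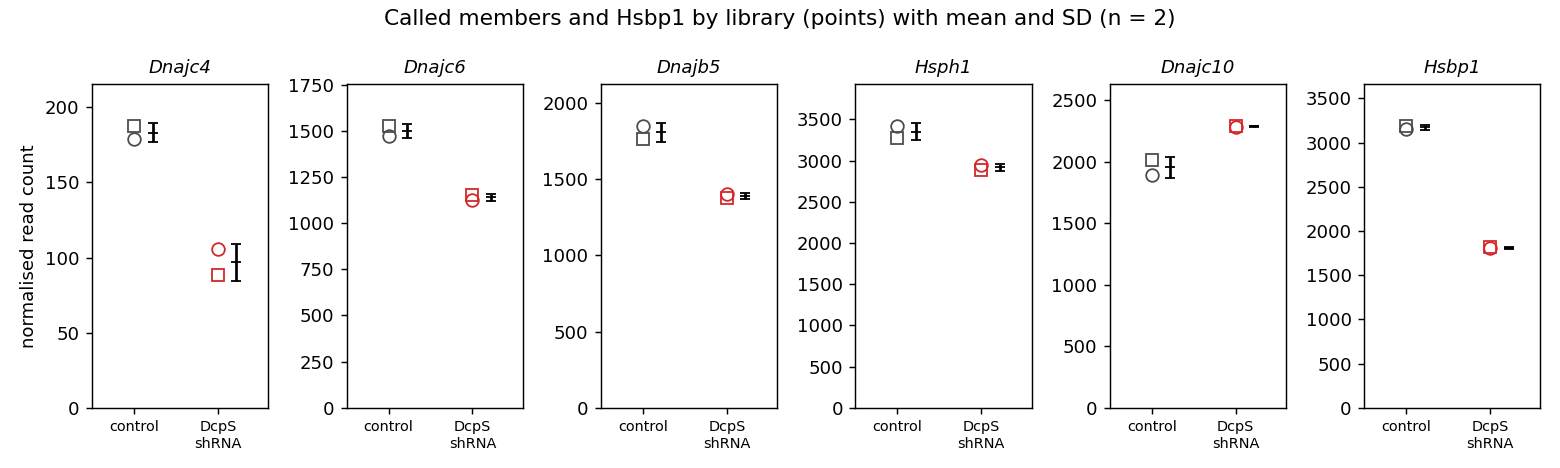
Normalised read count (vertical, from 0) of the 5 called members and of Hsbp1 in each library (circles, replicate 1; squares, replicate 2), with the mean and SD of each group (n = 2). In each panel the control and DcpS shRNA points do not overlap; Dnajc10 is the one gene with DcpS shRNA above control.

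A pair of further DNAJC genes lay just outside the threshold. Dnajc15, which regulates import and respiration at the inner mitochondrial membrane, was at 373.4 and 407.1 against 457.9 and 500.6 (log2 fold change 0.30, SE 0.09; limma adjusted p = 0.0613). Dnajc16, a membrane-anchored J-domain protein of the ER, was at 728.8 and 768.1 against 632.4 and 649.3 (log2 fold change −0.22, SE 0.07; limma adjusted p = 0.0767). Neither gene's groups overlapped. The most abundant DNAJC genes per kb were Dnajc8, a nuclear protein of RNA splicing, and Dnajc7, a partner of both HSP70 and HSP90. Dnajc8 was at 2197.7 and 2218.2 against 2285.0 and 2325.5, and Dnajc7 at 3805.4 and 3903.2 against 4121.2 and 4153.7. Both were higher in both DcpS shRNA libraries, with log2 fold changes of 0.06 and 0.10, and neither was called. The other 15 DNAJC genes tested lay between −0.15 (Dnajc25) and 0.19 (Dnajc19), and none of them was called. Among these, Dnajc9, a histone co-chaperone, was at 1877.5 and 1863.4 against 2014.3 and 1995.8 and did not overlap (log2 fold change 0.10). Dnajc13, an endosomal protein, was at 1953.5 and 1946.5 against 2031.5 and 1767.9 and overlapped.

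Of the 4 genes that share the name stem but are not chaperones of these families, limma called 0, beside 5.79% of all genes tested. Of the 4, 1 had an unadjusted p under 0.05. That gene, Hspg2, encodes perlecan, a proteoglycan of basement membranes. It was at 1177.3 and 1347.5 against 1162.1 and 1012.5 (log2 fold change −0.22, SE 0.08; limma adjusted p = 0.129). The groups were separate but close. The fibroblast and matrix markers above, at 62.8% of control as a sum, moved in the same direction, and their part in this value was not tested. Lamc1, the one marker of that list not called, was at 1780.6 and 1879.8 against 1928.0 and 1725.4 (log2 fold change −0.004). Hspbp1, a nucleotide exchange factor of HSP70, was at 1076.5 and 998.9 against 989.4 and 966.6, and Hspb11, a component of intraflagellar transport, at 256.5 and 261.5 against 229.9 and 261.5. Neither was called.

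The 6 genes without enough reads to be tested were Hspb2, Hspb3, Hspb7, Dnajb7, Dnajb8 and Dnajc22. The highest single value among them was that of Dnajc22 in DcpS shRNA 1, and Hspb2 had reads in DcpS shRNA 2 alone. No difference could be read for them at this depth.

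The list of 9 heat-responsive members held Hspa1a, Hspa1b, Hspb1, Hspd1, Hspe1, Hsph1, Dnaja1 and Dnajb1, and also Hspa8, which is mainly constitutive. Over all genes tested, 3.65% were called lower, and log2 fold changes were below 0 for 9025 and above 0 for 9085. Of the 9, 1 (Hsph1) was called, lower, and the log2 fold changes were below 0 for 6 and above 0 for 3. The heat shock factor Hsf1, which drives these genes under stress, was at 667.0 and 634.8 against 595.1 and 626.9. It was lower in both DcpS shRNA libraries and was not called (log2 fold change −0.09; limma adjusted p = 0.561).

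The wider chaperone network was described with a list of 60 genes outside the naming rule, of which 59 were in the table and 56 were tested. It covered HSP90 and its co-chaperones, heat shock factors, BAG proteins, the cytosolic chaperonin CCT, prefoldin and mitochondrial proteases. The 2 groups did not overlap for 35 of the 56 (62.5%, beside 48.4% of all genes). Unadjusted p-values from limma were under 0.05 for 7, beside 3380 of all 18110. Of the 56, 1 was called (1.79%, beside 5.79% of all genes tested), and the median log2 fold change was 0.01. edgeR and DESeq2 also called 1, the same gene. That gene was Hsbp1, heat shock factor binding protein 1, a small coiled-coil protein that binds the trimeric form of HSF1. Hsbp1 was at 3154.6 and 3189.4 in the controls and at 1804.4 and 1819.3 with DcpS shRNA. The libraries of each group were close together and the groups far apart, at 57.1% of control. Hsbp1 fell by 0.81 on the log2 scale (SE 0.05; limma adjusted p = 3.71e-07).

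HSP90 genes were not called. Hsp90aa1, the inducible form, was at 20892.3 and 20611.1 against 22297.0 and 23566.8 (log2 fold change 0.14; limma adjusted p = 0.121). Both DcpS shRNA values were above the controls. Hsp90ab1, the constitutive form, was at 32006.4 and 31545.3 against 31250.9 and 32876.7, with overlap. The 8 CCT subunits tested had log2 fold changes between −0.04 and 0.07. None of them was called by limma, beside 5.79% of all genes tested. An unadjusted p under 0.05 was found for 0 of them, beside 3380 of all 18110. The same held for the 6 prefoldin subunits, between −0.07 and 0.09. In lists this short, 0 called is near the share over all genes. Fkbp5, an HSP90 co-chaperone, was at 1366.3 and 1378.3 against 1607.2 and 1537.7 (log2 fold change 0.20; limma adjusted p = 0.0539). Sil1, the nucleotide exchange factor of BiP, was at 180.5 and 177.4 against 231.7 and 226.9 (0.36; 0.0819). In both the groups were apart, and neither was called.

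The called members were then set beside the 3′ UTR words shown at the start. A word was present in 7 of the 64 tested members (10.9%) and in 1097 of 13709 tested genes with a scanned 3′ UTR (8.0%). Among members called lower, 3 of 4 had one: Dnajc4 and Dnajc6 with the 8 bases CACGTGCA, and Dnajb5 with CACGTGC. Hsph1 had none in its annotated 3′ UTRs, nor had Dnajc10. Over all genes, a word was found in 33.1% of those called lower, 6.25% of those called higher and 6.77% of those not called. Among the members not called, 4 of 59 (6.78%) had one, namely Dnajc16, Dnajc25, Dnajb11 and Dnajc19, with log2 fold changes of −0.22, −0.15, 0.01 and 0.19.
Dnajc16, chr4:141760449-141760475, minus strand: tccacgtgtcCACGTGCccttgaaaac
Dnajc19, chr3:34056452-34056478, minus strand: ttcacccagaACGTGCAgcagggatga

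These last stretches are shown because the genes hold a word and were not called. The words were picked from genes lower in these same data, so the contrasts that follow are descriptions and no test. The median log2 fold change was −0.22 for the 7 members with a word and 0.03 for the 57 without, and over all genes −0.10 and 0.01. Of all genes with a word, 19.5% were called lower, beside 3.43% of those without. The Dcps 3′ UTR itself holds the 8 bases, as do those of Dnajc4 and Dnajc6. Among the network genes, Hsbp1 has ACGTGCA, and 3 genes with a word (Cdc37, Sgtb and Clpb) were not called. The hairpin sequences are not given in the labels, and the part of these words in the differences was not tested.

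**Figure D4:**
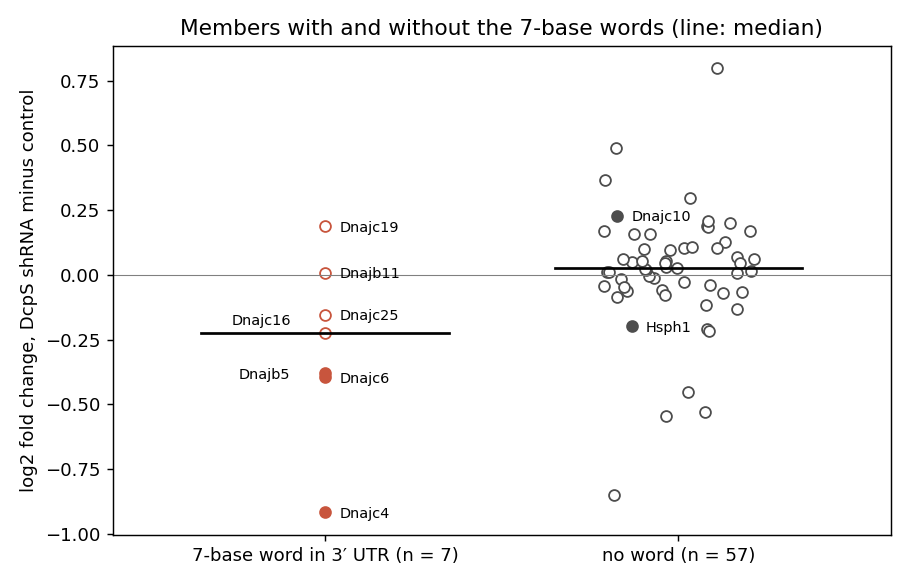
Log2 fold change of DcpS shRNA minus control (vertical) for the 64 tested members with (n = 7) and without (n = 57) one of the 7-base words in an annotated 3′ UTR; filled points are called and lines are medians. Of the filled points, 3 of the 4 below 0 are in the group with a word, and both groups hold genes above 0. The words were picked from genes lower in these same data.

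Heat shock elements were searched in 300-base promoter windows (250 before to 50 after the start) of RefSeq, which held 59 of the 70 members. A pair of units was searched on both strands as GAANNTTC and TTCNNGAA, each of which reads the same on either strand, and 3 units as GAANNTTCNNGAA and TTCNNGAANNTTC, which contain the pairs. A pair was in 15 of 59 members (25.4%), beside 4587 of 27025 genes (17%). All 3 units were in 4 of 59 members (6.78%), beside 179 of all genes (0.662%). Those 4 were Hspd1, Hspe1, Dnajb6 and Hsph1, whose stretches are shown above. The matches of Hspd1 and Hspe1 lie in their shared promoter. Of the 4, Hsph1 was called lower; Hspd1, Dnajb6 and Hspe1 were not called. Dnajc10 had a pair, while Dnajc4, Dnajc6 and Dnajb5 had no match in these windows. Only exact matches were searched, so no match does not show that a gene lacks the element. Of the heat-responsive list, Dnajb1 had no match either, and Hspa1a, Hspa1b and Hspb1 had a pair but not 3 units. Hspa8 and Hspa9 were not among the members with a window.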

How the data were processed

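RNA from 2 control and 2 DcpS shRNA cultures was sequenced. The deposited values are a signal, gene counts divided by a size factor of each library by the authors. Per the submitters' processing notes, the tools included HISAT2 2.2.0, SAMtools 1.3.1, Picard, featureCounts and DESeq2, with build GRCm38. The annotation, the use of strand and the treatment of reads that match several genes were not stated there, so overlapping genes and near-identical copies are uncertain. Dividing by the step of each column recovered whole reads for 100% of values (tolerance 0.001). Since scaled values do not suit a count model, the main test was limma 3.58.1 (R 4.3.3) on log2(value + 1), a scale that understates the change of low genes. It used an intensity trend and robust empirical Bayes, two-sided, with group as the only term. Benjamini-Hochberg adjustment ran over the 18110 genes passing edgeR's filterByExpr (minimum count 10). With 2 against 2, an exact permutation test of a single gene cannot go below p = 0.333. On the recovered reads, edgeR 4.0.16 called 1077 genes; DESeq2 1.42.0 and other scalings, pseudocounts, filters, a replicate block and leaving out each library were also tried. Of these steps, only the limma test was tried on simulated data.

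Named genes were every called member, the 2 most abundant tested members per kb of each class, and heat-inducible, ER and synaptic members. Members near the threshold and some network genes were named after their values were seen. The members and lists were chosen with earlier results of these data known. Exon lengths, positions and 3′ UTRs came from GENCODE M21 (70 of 70 symbols matched).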

Additional observations from a re-analysis of the deposited data

How the results depend on the processing

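Dnajc4, Dnajc6 and Dnajb5 were called under all 13 alternatives, and none of the 5 called members changed sign under any of them. Over all genes, where limma called 1048, DESeq2 called 448, and leaving out 1 library gave 594 (without control 2) to 1439 (without DcpS shRNA 1). For members called higher, where the count was 1, DESeq2 gave 0, no filter on low values gave 2 (Hspa12a added), and leaving out 1 library gave 0 (without control 1) to 3 (without DcpS shRNA 1, which adds Dnajc15 and Hspa12a). Members called lower, 4 here, ran from 3 to 6. For network genes called, where the count was 1, no filter gave 2 and leaving out 1 library gave 1 to 4, with 4 without DcpS shRNA 1 and 2 without DcpS shRNA 2. Hspg2 was called without control 1 (limma adjusted p = 0.0301) and without DcpS shRNA 1 (0.00893). A group left with 1 library is assumed to vary like the other. The cause of these differences was not tested.

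The set number in the titles is shared by 1 control and 1 DcpS shRNA library, but the labels do not say that it marks a shared preparation. The differences between replicates 1 and 2 correlated at 0.0429 across genes between the groups. With the replicate block, limma called 1626 genes, 3 members higher, 6 lower and 3 network genes, and Dnajc15, Dnajc16, Hspa12a and Hspg2 were added to the members called. With 2 libraries a group, small differences in genes of few reads, such as the small heat shock genes, were not detectable.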
